A study of Homo sapiens and Mus musculus with 27 samples.

Results

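AMD3100 given alone to cells labelled HCC1937 was compared with vehicle in 5 RNA-seq libraries, which are 5 of the 27 samples of the study and 5 of its 9 HCC1937 libraries. HCC1937 is an established human breast cancer cell line, described as basal-like and triple negative. The groups used are 10 µM AMD3100 (replicates 2 and 3), 10 µM TM (replicates 1 to 3, used for a direct test against AMD3100) and vehicle (replicates 1 to 3). The labels do not spell out TM, the vehicle's solvent or the hours of treatment, and none of these groups received bortezomib, the proteasome inhibitor of the study's other arms. Replicates are labelled as biological, without saying whether they are separate cultures, so every p-value refers to the spread among these libraries, which may be technical. AMD3100 replicate 1 was left out of the fit, because 19.9% of its counts fell on mitochondrial genes and 20639 genes had a count. The other 8 libraries held 10.5% to 11.6% and 29335 to 31770 genes.

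AMD3100, or plerixafor, is a bicyclam that blocks the chemokine receptor CXCR4, and its rings can bind metal ions such as copper and zinc. CXCR4 is a Gi-coupled receptor for the chemokine CXCL12, and in carcinoma cells it is known for its part in migration and ERK signalling. Immediate early genes such as FOS and EGR1 are transcribed within minutes of growth factor or stress signals, without new protein synthesis. In the integrated stress response, phosphorylation of eIF2α favours translation of the transcription factor ATF4, which acts on genes for amino acid synthesis, amino acid import and tRNA charging.

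The 5 libraries held 39033097 to 41675186 counts. Replicates of 1 group differed by more than sampling noise, so no library was a copy of another. The label was checked against epithelial genes, several of which were listed at or near 0. KRT5, a basal keratin, was at 0 CPM (counts scaled to library size with TMM factors) in both AMD3100 libraries and between 0 and 0.103 CPM with vehicle, and KRT6B was 0 in all 5 libraries. EPCAM was at most 0.248 CPM with AMD3100 and 0.144 CPM with vehicle, and CDH1, the E-cadherin gene, lay between 0.554 and 0.621 CPM with AMD3100 and between 0.384 and 0.841 CPM with vehicle. The simple keratin KRT8 lay between 1750 and 1850 CPM with AMD3100 and between 1780 and 1890 CPM with vehicle, and KRT18, EGFR and VIM were present. Genes that nearly all cells use were listed low too, with ALDOA, an aldolase, at 3.3 and 3.88 CPM with AMD3100 and 4.21, 2.78 and 2.87 CPM with vehicle. FTH1, ferritin heavy chain, lay between 3.02 and 5.3 CPM and MIF between 0 and 0.396 CPM over the 5 libraries, so a low value in this table need not mean a silent gene. The cells are called cells labelled HCC1937, and no other identity is given. Markers of leukocytes and endothelium were low in both groups, while those of fibroblasts and luminal breast were not. The summed level of 11 leukocyte markers ran between 8.54 and 11 CPM with AMD3100 and between 7.94 and 8.98 CPM with vehicle, with CD3E and MS4A1 at 0. The 6 endothelial markers summed to between 2.98 and 3.40 CPM with AMD3100 and between 2.22 and 3.44 CPM with vehicle. The 8 fibroblast markers summed to between 133 and 140.2 CPM with AMD3100 and between 142 and 147 CPM with vehicle, nearly all of it COL1A1. The 9 luminal breast markers summed to between 106.1 and 112.5 CPM with AMD3100 and between 95.9 and 107.5 CPM with vehicle. Only 6 of these 9 passed the low-count filter, and 1 was at 0 in all 5 libraries.

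Between the AMD3100 and vehicle libraries many transcripts differed by small amounts and few by much. In edgeR's quasi-likelihood test, 1661 of 20398 tested genes passed an adjusted p of 0.05 (8.14%), of which 1099 were higher (5.39%) and 562 lower (2.76%) with AMD3100. Such genes are called changed below. Both AMD3100 libraries lay above all vehicle libraries for 20.4% of tested genes and below all of them for 15.8%, and 1655 of the 1661 called genes were among these. The median change of those called was 1.19-fold upward and 1.24-fold downward. Among those changed at least 2-fold, 41 were higher and 41 lower, and only 8 of those higher and 2 of those lower reached 5 CPM in the higher group. In the plot of all tested genes, EGR1, FOS, JUN, GDF15 and FGF21 stand apart above, and CA9 stands apart below. The count of calls leaned on single libraries, since it was 252 without AMD3100 replicate 3 and 680 without vehicle replicate 2. Of 116 named genes tested, 44 lost their call without AMD3100 replicate 3 and 17 without vehicle replicate 2. With AMD3100 replicate 1 kept in the fit no gene was called by edgeR, and 951 genes had an unadjusted p under 0.05 there.

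**Figure D1:**
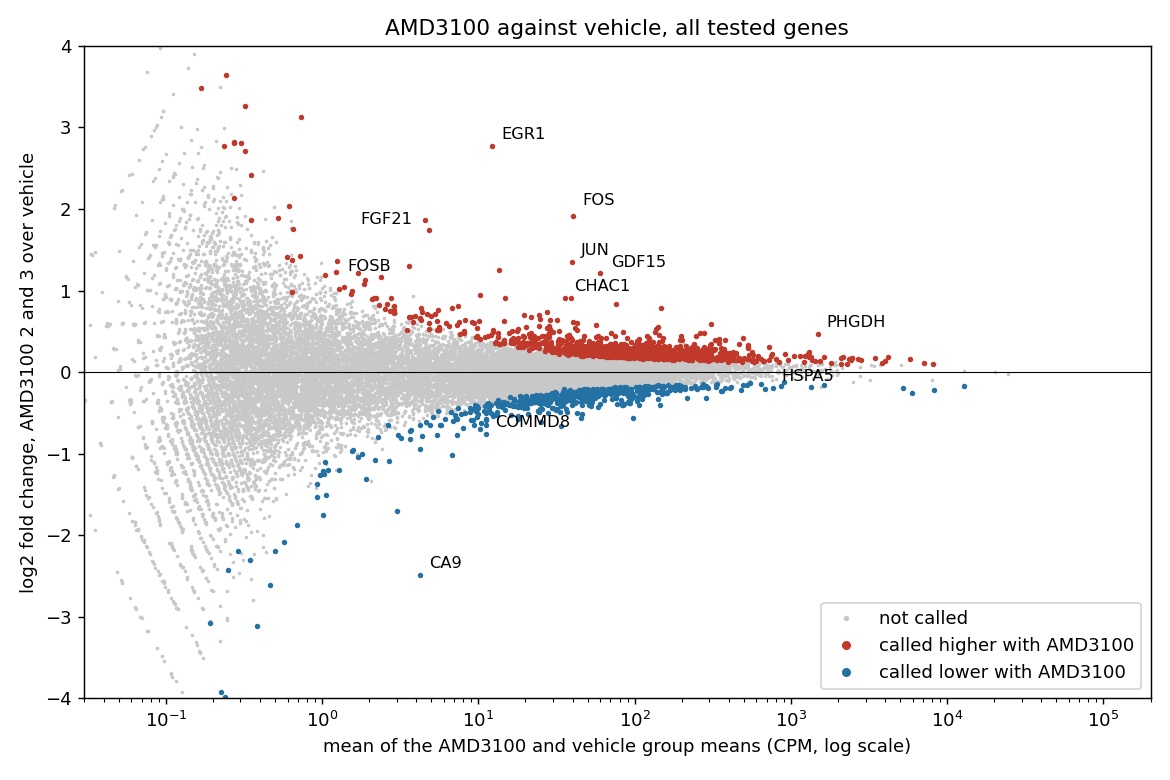
Log2 fold change of AMD3100 replicates 2 and 3 over vehicle (vertical axis) against the mean of the group means in CPM (horizontal axis, log scale) for tested genes, with called genes coloured by direction. Most called genes lie close to 0, while EGR1 at 2.77 and CA9 at -2.49 lie far from genes of like level; 47 genes lie beyond the axis limits of 4.

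The changes followed the base composition of the transcripts. Genes called higher had a median GC content of 60.2%, those called lower 39.8%, and all tested genes 49.0%. Over 20 bins of genes ordered by GC content, the median log2 change was -0.20 in the lowest bin and 0.21 in the highest. In the highest bin 25.8% of genes were called higher and 0.11% lower, and in the lowest bin 0.441% were called higher and 12.9% lower. Single libraries differed in this tilt. The median log2 difference of the highest bin from the vehicle mean, less that of the lowest, was 0.47 in AMD3100 replicate 3, 0.26 in AMD3100 replicate 2, between 0.13 and 0.30 in the TM libraries and between -0.15 and 0.07 in the vehicle libraries. It was -1.23 in AMD3100 replicate 1, which had the opposite sign. What gave rise to the tilt was not tested. A fit with GC content and gene length as offsets is therefore called the corrected fit below, and its counts are given for each gene list. A named gene whose call it loses is said to lose it. The corrected fit called 442 genes higher (2.17%) and 231 lower (1.13%), 3.3% of tested genes in all. Among them were 296 of the 1099 genes and 153 of the 562 genes above in the same direction. A list's counts below are to be read beside these shares, and beside 5.39% higher and 2.76% lower as fitted.

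**Figure D2:**
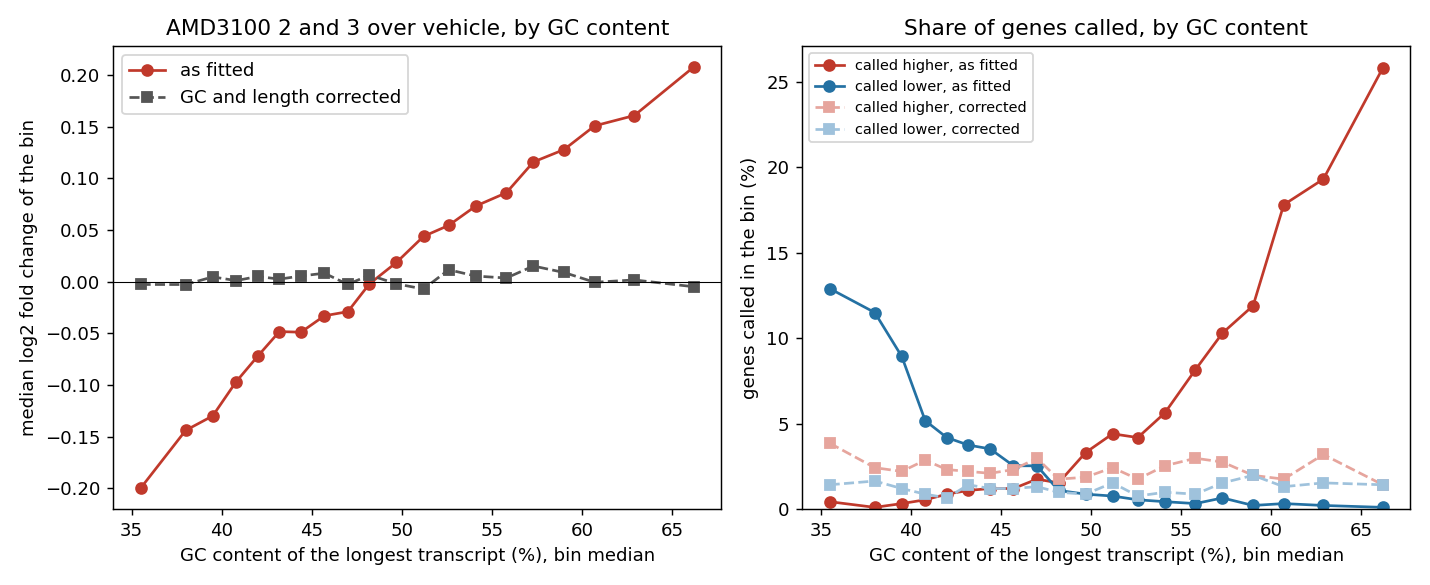
Left, median log2 fold change of AMD3100 over vehicle in 20 bins of genes by GC content of the longest transcript (percent), as fitted and with GC content and length corrected. Right, percent of genes called higher and lower in the same bins; as fitted, calls higher reach 25.8% in the highest bin, and with the correction they lie between 1.43% and 3.86% in every bin.

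The target of AMD3100 was well counted and its ligand had no counts. CXCR4 stood at 84.3 and 83.8 CPM with AMD3100, against 86.1, 101 and 96.8 CPM with vehicle. Both AMD3100 libraries lay below all vehicle libraries, as they did for 15.8% of tested genes. The log2 change of CXCR4, -0.17 ± 0.06 (SE), did not pass (edgeR adjusted p = 0.0853). DESeq2 called it lower, as did the fit without the low-count filter and that without vehicle replicate 1. ACKR3, the atypical receptor for the same ligand, stood at 17.5 and 15.7 CPM with AMD3100 and at 13.2, 13.7 and 14.7 CPM with vehicle (adjusted p = 0.0823). CXCL12 had 0 counts in each of the 5 libraries, which allows up to 3 counts in each. Of 15 tested genes for the receptor, its ligands and its desensitisation, 1 rose and 1 fell (1 and 0 in the corrected fit). Each is 6.67% of the list, against 5.39% higher and 2.76% lower over all tested genes. RGS16, which speeds GTP hydrolysis by Gi proteins, rose 1.55-fold, with 12.6 and 11.9 CPM with AMD3100 against 8.12, 8.66 and 6.95 CPM with vehicle (adjusted p = 0.00233). CD164, a sialomucin that associates with CXCR4, fell 1.20-fold and was not called in the corrected fit or without AMD3100 replicate 3. The arrestins ARRB1 (21.7 and 22 CPM with AMD3100, 18.7, 17.8 and 18 CPM with vehicle) and ARRB2 did not pass.

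EGR1 and FOS, both immediate early genes, rose most among called protein-coding genes of at least 5 CPM whose groups did not overlap. EGR1, a zinc-finger transcription factor at chr5:138465490-138469315 (GRCh38, plus strand), stood at 21.9 and 20.9 CPM with AMD3100, against 2.95, 4.25 and 2.23 CPM with vehicle, a log2 change of 2.77 ± 0.16 (SE, adjusted p = 5.51e-12) or 6.81-fold. FOS stood at 61.8 and 66.3 CPM with AMD3100 and at 16.9, 17.3 and 16.8 CPM with vehicle, a 3.77-fold rise (log2 1.91 ± 0.08, adjusted p = 2.43e-15). For both genes the AMD3100 libraries lay several times above every vehicle library, and the change was nearly as large in the corrected fit, with log2 2.68 for EGR1 and 1.87 for FOS. JUN, the main partner of FOS in AP-1, stood at 55.1 and 59.3 CPM with AMD3100 and at 21.4, 20.96 and 25.1 CPM with vehicle (2.54-fold). FOSB stood at 5.64 and 4.62 CPM with AMD3100 and at 2.15, 2.28 and 1.81 CPM with vehicle (2.47-fold), and JUNB at 179 and 192 CPM with AMD3100 and at 108, 105 and 110 CPM with vehicle (1.72-fold). The rule that chose these AP-1 subunits required both fitted AMD3100 libraries to lie above vehicle. AMD3100 replicate 1, outside the fit, lay above all vehicle libraries for FOS, JUN and FOSB and below them for JUNB. IER2, a small nuclear early response protein, averaged 161 ± 3.27 CPM with AMD3100 and 111 ± 5.55 CPM with vehicle (SD, n = 2 and 3; edgeR adjusted p = 1.08e-07). Of the 22 tested members of the AP-1 and immediate early list 10 rose (45.5%, against 5.39% of all tested genes) and 0 fell. The list's median log2 change was 0.19, against 0.0074 over all tested genes. The 4 risers not named above were FOSL2, JUND, IER5 and KLF4, at log2 changes of 0.16 to 0.37. In the corrected fit 8 rose, FOSL2 and JUND no longer among them.

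**Figure D3:**
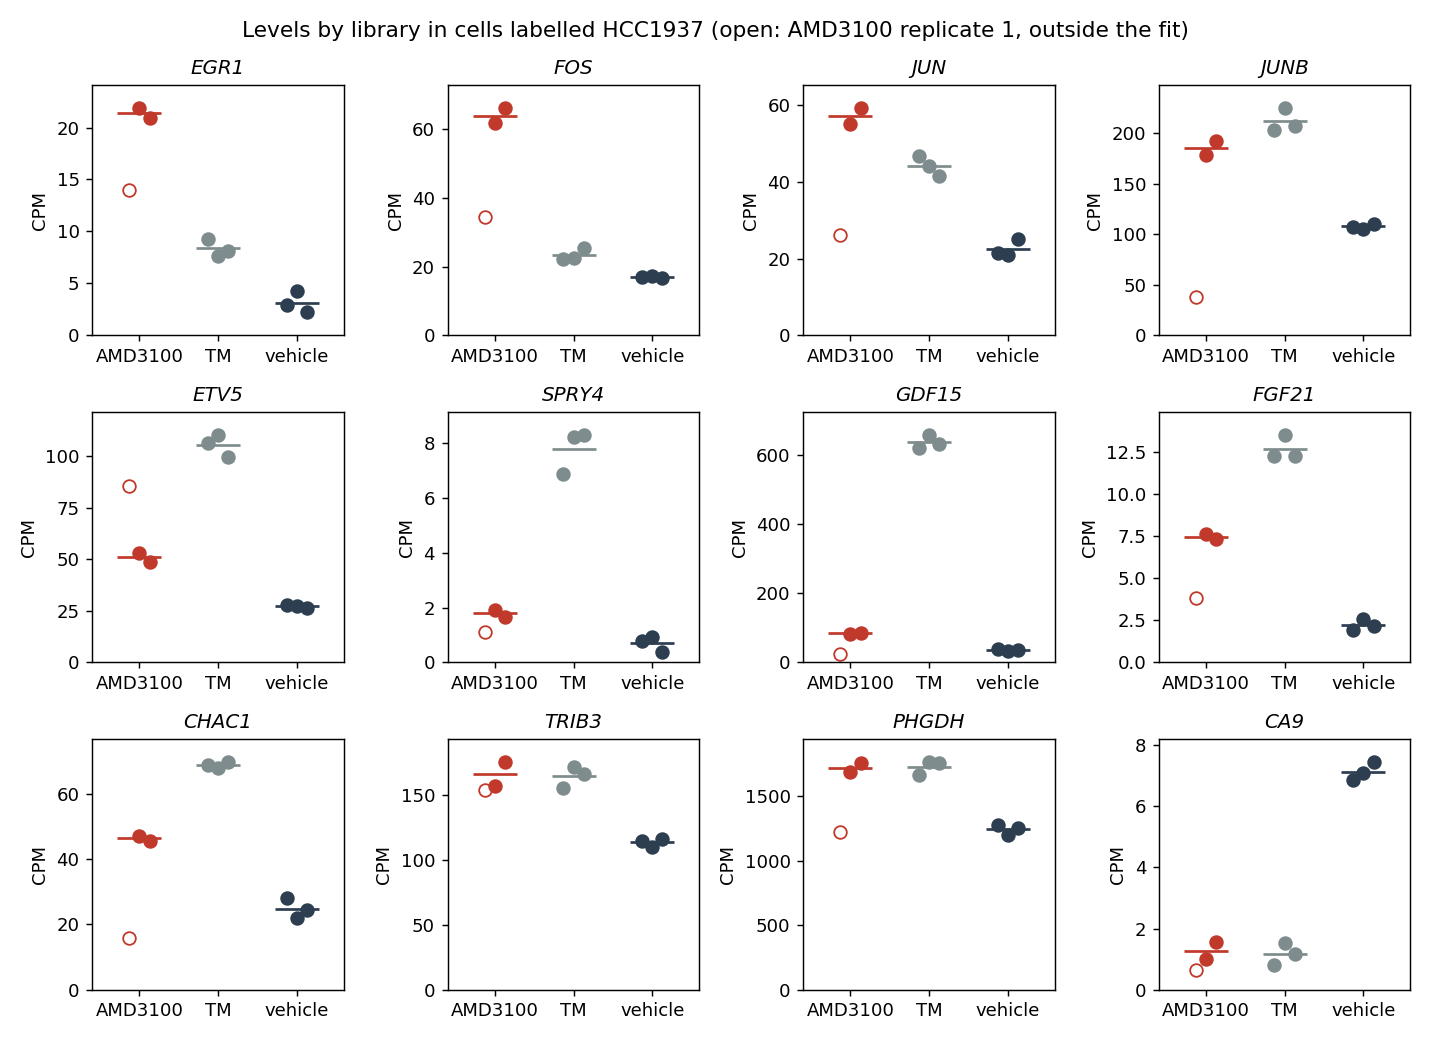
CPM of 12 genes in each library, AMD3100, TM and vehicle side by side; bars are group means, and the open circle is AMD3100 replicate 1, outside the fit. The AMD3100 libraries in the fit lie above vehicle for the first 11 genes and below it for CA9, while the open circle falls below vehicle for JUNB, GDF15 and CHAC1.

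Only 2 of the 17 immediate early promoters that could be matched held a CArG box, the serum response factor motif, within 250 bases before the annotated start. These were EGR1 and SRF, and the motif stood in 1.14% of all 27305 windows. The EGR1 window (RefSeq, GRCh38.p14, plus strand, chr5:138465229-138465478) is shown because it belongs to the gene with the largest rise and holds 2 such boxes, in capitals, which begin 105 and 83 bases before the start.
EGR1: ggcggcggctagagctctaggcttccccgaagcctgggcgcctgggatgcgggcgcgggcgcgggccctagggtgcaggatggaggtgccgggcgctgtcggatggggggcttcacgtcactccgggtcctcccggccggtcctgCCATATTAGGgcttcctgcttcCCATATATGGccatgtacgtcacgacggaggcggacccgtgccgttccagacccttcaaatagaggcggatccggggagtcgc
A match describes letters in the window and not a bound site.

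Feedback genes of the ERK pathway rose with them. ERK signalling induces phosphatases, Sprouty proteins and ETS factors that in part damp the same pathway. Of 19 tested genes 7 rose (36.8%, against 5.39% of all tested genes) and 0 fell, and 6 rose in the corrected fit. The list's median log2 change was 0.18. The ETS factor ETV5 stood at 53.1 and 48.8 CPM with AMD3100 and at 27.9, 27.2 and 26.4 CPM with vehicle, a 1.87-fold rise (adjusted p = 3.73e-10). Its relative ETV4 averaged 48.5 ± 0.454 CPM with AMD3100 and 31.8 ± 2.43 CPM with vehicle (SD, n = 2 and 3), 1.53-fold. The fitted AMD3100 libraries lay above all vehicle libraries for both ETS genes, which for ETV5 the choice of the 12 largest rises required. The MAP kinase phosphatases DUSP1 and DUSP4 rose 1.49-fold and 1.47-fold, and DUSP2 rose 1.29-fold. SPRY4, a Sprouty inhibitor of receptor tyrosine kinase signalling, was low, at 1.91 and 1.66 CPM with AMD3100 against 0.776, 0.911 and 0.396 CPM with vehicle (log2 1.36 ± 0.27, adjusted p = 0.00193). EPHA2, the seventh, rose at log2 0.19 and was not called in the corrected fit.

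Targets and regulators of ATF4 and CHOP also rose. Of 24 tested members 12 rose (50%, against 5.39% of all tested genes) and 0 fell, with a median log2 change of 0.26. In the corrected fit 11 rose. FGF21, a secreted metabolic hormone, stood at 7.60 and 7.33 CPM with AMD3100 and at 1.94, 2.57 and 2.15 CPM with vehicle, a 3.36-fold rise (log2 1.75 ± 0.15, adjusted p = 1.96e-08). GDF15, a secreted stress cytokine, stood at 83.1 and 85.8 CPM with AMD3100 and at 37.7, 33.7 and 37.6 CPM with vehicle, 2.33-fold (log2 1.22 ± 0.05, adjusted p = 3.01e-15). CHAC1, which degrades glutathione, stood at 47.2 and 45.7 CPM with AMD3100 and at 28.1, 22.1 and 24.4 CPM with vehicle, 1.87-fold (adjusted p = 1.02e-08). These genes are among the 12 largest rises, which were chosen to have no overlap between groups. ATF4 itself rose 1.24-fold, to 797 and 809 CPM with AMD3100 against 639, 635 and 667 CPM with vehicle. DDIT3, which encodes CHOP, rose 1.42-fold, with 20.3 and 21.2 CPM with AMD3100 against 16.6, 14.4 and 12.99 CPM with vehicle, and was not called without AMD3100 replicate 3. The pseudokinase TRIB3 rose 1.46-fold and the mTORC1 inhibitor DDIT4 1.5-fold. SESN2, another mTORC1 inhibitor, rose at log2 0.65, while ATF3, a stress-induced repressor, stood at 35.6 and 39.5 CPM with AMD3100 against 32.3, 35.5 and 35.1 CPM with vehicle and did not pass (adjusted p = 0.30).

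The enzymes that make serine, glycine and related amino acids moved the same way. Of 18 tested 11 rose (61.1%, against 5.39% of all tested genes) and 0 fell, with a median log2 change of 0.23. In the corrected fit 10 rose. PHGDH, the first enzyme of serine synthesis, averaged 1720 ± 44.3 CPM with AMD3100 and 1240 ± 40.5 CPM with vehicle (SD, n = 2 and 3), a 1.39-fold rise (edgeR adjusted p = 1.15e-09). PSAT1 and SHMT2, which act after it and on serine itself, rose 1.23-fold and 1.27-fold. The proline enzyme PYCR1 rose 1.40-fold, the alanine transaminase GPT2 1.33-fold and the cystathionine lyase CTH 1.33-fold. PCK2, the mitochondrial phosphoenolpyruvate carboxykinase, was not on the list but was among the 12 largest rises, at 96.2 and 97.1 CPM with AMD3100 against 54.6, 52.8 and 55.2 CPM with vehicle (1.78-fold). ASNS, asparagine synthetase, was listed low, at 2.24 and 2.08 CPM with AMD3100 against 1.14, 2.01 and 1.81 CPM with vehicle, and did not pass (adjusted p = 0.485).

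Cytosolic aminoacyl-tRNA synthetases, which charge tRNAs for translation, rose in 9 of 24 tested members (37.5%, against 5.39% of all tested genes) and fell in 0. The list's median log2 change was 0.12. CARS1 rose 1.38-fold, WARS1 1.36-fold, SARS1 1.32-fold and GARS1 1.27-fold. SARS1 stood at 388 and 405 CPM with AMD3100 and at 299, 300.2 and 302 CPM with vehicle, so that its rise was many times the spread within groups. Of the 17 mitochondrial synthetases 1 rose (5.88%, against 5.39% of all tested genes), CARS2 at 1.13-fold, and the corrected fit did not call it. The corrected fit called 10 of the cytosolic set and 0 of the mitochondrial set. These sets were not tested against each other. Amino acid transporters split, with 7 of 23 higher (30.4%, against 5.39% of all tested genes) and 3 lower (13%, against 2.76%). The corrected fit called 4 higher and 1 lower. The glutamine transporter SLC1A5 rose 1.31-fold (416 and 438 CPM with AMD3100, 335, 320 and 318 CPM with vehicle), and SLC1A4 and SLC6A9, carriers of neutral amino acids and of glycine, rose 1.28-fold and 1.26-fold. The cystine carrier SLC7A11 rose at log2 0.34. SLC3A2, the heavy chain of several exchangers, rose 1.12-fold and was not called in the corrected fit. The glial-type glutamate transporter SLC1A3 fell 1.17-fold.

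CHAC1 and FGF21 were the only called members of the ATF4 and CHOP list whose promoter window held TGATGNAA, the composite element bound by C/EBP and ATF dimers, searched on both strands. In total 4 of the 22 matched windows of that list held it, against 3.19% of all windows and 1.43% of those of tested genes. Both are shown from RefSeq GRCh38.p14 on the plus strand, CHAC1 at chr15:40953221-40953470 and FGF21 at chr19:48755274-48755523, with the match in capitals. It lies on the reverse strand of each window and begins 209 bases before the CHAC1 start and 54 bases before the FGF21 start.
CHAC1: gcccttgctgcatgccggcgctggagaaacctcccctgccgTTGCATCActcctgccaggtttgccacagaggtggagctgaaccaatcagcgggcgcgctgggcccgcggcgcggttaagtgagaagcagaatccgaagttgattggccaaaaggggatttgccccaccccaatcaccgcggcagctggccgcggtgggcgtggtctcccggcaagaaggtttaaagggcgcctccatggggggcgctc
FGF21: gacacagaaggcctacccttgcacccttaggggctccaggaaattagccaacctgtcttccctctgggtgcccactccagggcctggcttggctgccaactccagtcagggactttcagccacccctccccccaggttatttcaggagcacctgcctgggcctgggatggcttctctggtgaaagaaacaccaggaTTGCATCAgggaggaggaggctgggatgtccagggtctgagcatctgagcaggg

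Chaperones of the endoplasmic reticulum did not rise with the ATF4 targets. Of 26 tested members 1 rose (3.85%, against 5.39% of all tested genes) and 5 fell (19.2%, against 2.76%). The list's median log2 change was -0.083. HSPA5, the chief chaperone of the compartment, stood at 714 and 713 CPM with AMD3100 and at 809, 829 and 811 CPM with vehicle, a 1.14-fold fall (log2 -0.19 ± 0.04, adjusted p = 0.00113) that was also called in the corrected fit. HSP90B1 fell 1.16-fold, the lectin chaperone CANX 1.13-fold and the oxidase ERO1A 1.15-fold, and none of these was called in the corrected fit, which called 1 member higher and 4 lower. XBP1, a transcription factor of the unfolded protein response, was the member that rose, at log2 0.16. Cytosolic heat shock genes were similar, with 1 of 24 higher (4.17%) and 6 lower (25%, against 2.76% of all tested genes). The corrected fit called 0 higher and 5 lower. The co-chaperone DNAJA1 fell 1.18-fold, to 331 and 333 CPM with AMD3100 against 380, 397 and 393 CPM with vehicle. CHORDC1, a co-chaperone of HSP90, fell 1.25-fold, and HSF1, the heat shock transcription factor, rose 1.19-fold. Neither of these was called in the corrected fit or without AMD3100 replicate 3.

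The endoplasmic reticulum stress element, CCAAT and CCACG with 9 bases of any kind between them, searched on both strands, stood in 7 of the 25 matched windows of the chaperone list and in 0.0806% of all windows. HSPA5 (RefSeq GRCh38.p14, minus strand, chr9:125241344-125241593) is shown because it fell although it is the standard readout of this element, which begins 66 bases before the start and is in capitals.
HSPA5: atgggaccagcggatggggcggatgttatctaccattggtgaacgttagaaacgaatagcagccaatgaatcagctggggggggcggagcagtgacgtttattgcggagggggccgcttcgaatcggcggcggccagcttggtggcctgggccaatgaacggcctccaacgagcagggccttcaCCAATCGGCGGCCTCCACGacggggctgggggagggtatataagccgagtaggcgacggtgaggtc

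CA9 gave the largest fall among the same set of protein-coding genes. This cell-surface carbonic anhydrase, a standard target of the hypoxia factor HIF, stood at 0.994 and 1.56 CPM with AMD3100 and at 6.85, 7.10 and 7.45 CPM with vehicle, a 5.60-fold fall (log2 -2.49 ± 0.25, adjusted p = 2.79e-07). The rule that chose CA9 required both fitted AMD3100 libraries to lie below all vehicle libraries. AMD3100 replicate 1, outside the fit, was at 0.651 CPM, and it lay below all vehicle libraries for 52.2% of tested genes. Among 23 tested HIF targets 5 fell (21.7%, against 2.76% of all tested genes) and 1 rose (4.35%, against 5.39%). The corrected fit gave the same counts but not all the same genes. The list's median log2 change was -0.12. PFKFB4, which makes a regulator of glycolysis, fell 1.46-fold, with 10.2 and 9.97 CPM with AMD3100 against 15.5, 14.5 and 14.1 CPM with vehicle. INSIG2, a brake on sterol synthesis, fell 1.44-fold and was not called in the corrected fit. The mitophagy receptor BNIP3 fell at log2 -0.22 and the glucose transporter SLC2A1 at log2 -0.18. VEGFA, at 89.6 and 92.3 CPM with AMD3100 against 79.4, 85.2 and 81.2 CPM with vehicle, did not pass (adjusted p = 0.0749). The member that rose was DDIT4, which is also on the ATF4 list. Glycolytic enzymes gave 4 rises and 2 falls of 21, of which the corrected fit called 0 higher and 2 lower. PGAM1, phosphoglycerate mutase, fell 1.16-fold, and PFKP, a phosphofructokinase, rose 1.14-fold but was not called there.

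The core HIF motif ACGTG, searched on both strands, stood in 9 of the 20 matched windows of HIF targets and in 18.7% of all windows. Among windows of tested genes it stood in 22.9%, with 22.8% for genes called higher and 25.7% for genes called lower. The CA9 window (RefSeq GRCh38.p14, plus strand, chr9:35673678-35673927) is shown as that of the gene with the largest fall, with the match on the reverse strand in capitals, 18 bases before the start.
CA9: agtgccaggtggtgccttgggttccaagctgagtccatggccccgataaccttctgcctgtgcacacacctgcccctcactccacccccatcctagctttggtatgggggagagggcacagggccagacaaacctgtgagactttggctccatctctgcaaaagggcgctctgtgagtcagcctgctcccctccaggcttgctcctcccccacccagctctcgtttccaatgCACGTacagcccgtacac

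**Figure D4:**
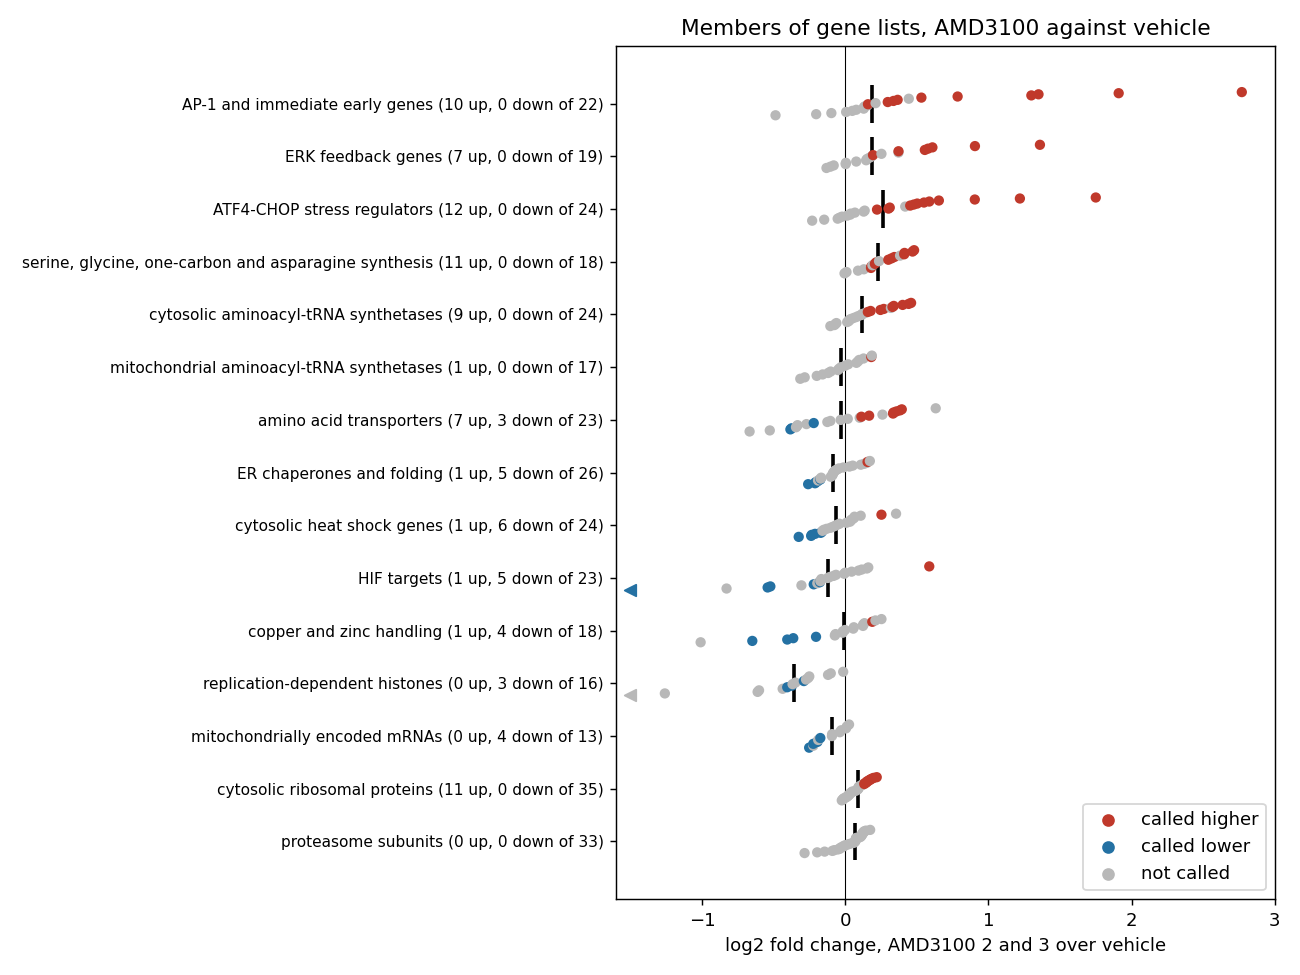
Log2 fold change of AMD3100 over vehicle for each tested member of 15 gene lists, coloured by call, with the list median as a black bar and triangles for members beyond the axis. Calls in the first 5 lists are all higher, with medians of 0.12 to 0.26, and those in histones and mitochondrially encoded mRNAs are all lower.

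Genes that move copper and zinc gave 4 falls (22.2%, against 2.76% of all tested genes) and 1 rise (5.56%, against 5.39%) of 18. The corrected fit gave 3 falls and 1 rise. ATP7A, the copper exporter of the secretory pathway, stood at 8.02 and 6.57 CPM with AMD3100 and at 11.5, 13.2 and 9.62 CPM with vehicle, a 1.57-fold fall. Its homologue ATP7B fell 1.29-fold and the zinc exporter SLC30A1 1.32-fold, while the copper importer SLC31A1 rose 1.14-fold. SLC30A1 stood at 93.0 and 89.9 CPM with AMD3100 and at 119.6, 133 and 111 CPM with vehicle. These 4 genes were called in the corrected fit. ATP7A, ATP7B and SLC31A1 were not called without AMD3100 replicate 3. The metallothionein MT2A stood at 129 and 116 CPM with AMD3100 and at 109, 99.8 and 109 CPM with vehicle and did not pass (adjusted p = 0.0731).

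Called NRF2 targets, which are oxidative stress genes, mostly rose, and called mitochondrially encoded mRNAs fell. Of 26 NRF2 targets 7 rose (26.9%, against 5.39% of all tested genes) and 1 fell, and 4 rose and 0 fell in the corrected fit. ABCC3, an export pump for glutathione and glucuronide conjugates, rose 1.56-fold, with 34.0 and 36.4 CPM with AMD3100 against 22.7, 23.9 and 21.1 CPM with vehicle. The quinone reductase NQO1 rose 1.13-fold and the oxidative stress gene OSGIN1 1.53-fold, OSGIN1 not in the corrected fit. HMOX1, heme oxygenase, stood at 52.3 and 57.7 CPM with AMD3100 and at 55.9, 52.9 and 50.7 CPM with vehicle, so that the groups overlapped. Of 13 mitochondrially encoded mRNAs 4 fell (30.8%, against 2.76% of all tested genes), in the corrected fit too. MT-ND2, a complex I subunit, averaged 5460 ± 58.5 CPM with AMD3100 and 6510 ± 96.4 CPM with vehicle (SD, n = 2 and 3), and MT-CYB, the complex III cytochrome b, 7600 ± 325 CPM with AMD3100 and 8870 ± 127 CPM with vehicle. Mitochondrial genes took 10.5% and 10.6% of counts with AMD3100 and 11.1% to 11.6% with vehicle, and the part of this difference in the falls was not tested. Of 30 nuclear respiratory chain genes 3 rose and 1 fell (2 and 1 in the corrected fit). The one that fell, the complex I subunit NDUFB5, stood at 29.3 and 23.4 CPM with AMD3100 and at 35.1, 56.0 and 34.0 CPM with vehicle, where vehicle replicate 2 stood apart. DESeq2 did not call it.

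Genes of growth arrest and cell death gave some rises and 0 falls, though most did not pass. Of 21 p53 targets and CDK inhibitors 6 rose (28.6%, against 5.39% of all tested genes), 0 fell and 15 were not called. In the corrected fit 4 rose. MDM2, the ligase that degrades p53, stood at 29.9 and 27.3 CPM with AMD3100 and at 30.8, 34.4 and 32.3 CPM with vehicle. BBC3, which encodes the BH3-only protein PUMA, stood at 27.7 and 32.4 CPM with AMD3100 and at 18.6, 18.8 and 18.04 CPM with vehicle, a 1.62-fold rise (adjusted p = 5.43e-06). PHLDA3, an inhibitor of AKT, rose 1.36-fold and the pore-forming BAX 1.23-fold. CDKN1A, which encodes p21, stood at 55.6 and 59.9 CPM with AMD3100 and at 45.8, 48.5 and 49.5 CPM with vehicle (1.21-fold) and was not called in the corrected fit. Of 15 BCL2 family members 3 rose (20%) and 12 were not called, and 2 rose in the corrected fit. Replicative genes had no common direction, with 2 rises and 3 falls among 26 G1/S genes (0 and 3 in the corrected fit) and 2 rises and 1 fall among 24 mitotic genes (1 and 0). TK1 and CDT1, in thymidine salvage and origin licensing, rose 1.22-fold and 1.18-fold and were not called in the corrected fit, nor were CDC20 and KIF23, a mitotic activator and a kinesin. Among 16 replication-dependent histones 3 fell and 0 rose (2 fell in the corrected fit), with a median log2 change of -0.36. H2BC12 fell 1.32-fold and H1-2 1.22-fold. Histone genes share reads with close copies and most of their mRNA lacks a poly(A) tail, so these values are uncertain.

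Type I interferon response genes gave 5 rises (21.7%, against 5.39% of all tested genes) and 0 falls of 23. In the corrected fit 7 rose, where 2.17% of all tested genes did. OASL, an antiviral 2',5'-oligoadenylate synthetase-like protein, stood at 49.6 and 50.5 CPM with AMD3100 and at 31.4, 35.1 and 38.3 CPM with vehicle (1.43-fold, adjusted p = 9.25e-05). The ubiquitin-like ISG15 rose 1.45-fold, IFIT3 1.54-fold and the exonuclease ISG20 1.34-fold. MHC class I and immunoproteasome genes had 0 of 15 called by edgeR, and the corrected fit called 3 lower, among them the chaperone CALR (1097 and 1207 CPM with AMD3100, 1225, 1153 and 1214 CPM with vehicle). The peptide-loading oxidoreductase PDIA3 averaged 374 CPM with AMD3100 and 386 CPM with vehicle. Of 19 NF-kB genes 1 rose (5.26%, against 5.39% of all tested genes), and 0 in the corrected fit. NFKB2 and TNFAIP2 did not pass, at 1.13-fold and 1.08-fold. Of 33 proteasome subunits edgeR called 0, against 8.14% of all tested genes. The corrected fit called 5 higher, where it called 2.17% of all tested genes higher. PSMB5, the catalytic subunit that bortezomib binds, stood at 216 and 223 CPM with AMD3100 and at 205, 194 and 199 CPM with vehicle (adjusted p = 0.056), and DESeq2 and limma-voom called it higher. PSMB4 was at 1.09-fold and PSMD2 at 1.04-fold, and PSMB4 was called by the same tools and in the corrected fit.

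Translation and lipid genes had small changes. Of 35 cytosolic ribosomal protein genes 11 rose (31.4%, against 5.39% of all tested genes) and 0 fell, with a median log2 change of 0.090. In the corrected fit 6 rose. RPLP1 rose 1.14-fold and RPS2 1.13-fold, RPS2 not in the corrected fit. Of 29 ribosome biogenesis genes 4 rose and 2 fell, and the corrected fit called 0 either way. FBL, fibrillarin, was higher 1.14-fold and BOP1, a pre-ribosome factor, 1.16-fold before correction. Cholesterol genes gave 3 rises and 2 falls of 25, and 1 rise and 2 falls in the corrected fit. The sterol enzyme MSMO1 fell 1.18-fold and was not called there. Among 17 fatty acid genes the acetyl-CoA synthetase ACSS2 rose 1.30-fold and the elongase ELOVL5 fell 1.14-fold, in a list with 1 rise and 2 falls (2 and 1 in the corrected fit, where ELOVL5 was not called). TFEB, a transcription factor for lysosomal genes, rose 1.46-fold and the autophagy kinase ULK1 1.25-fold. Their list of 28 gave 3 rises (10.7%, against 5.39% of all tested genes) and 0 falls, with 2 rises in the corrected fit.

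The remaining lists held few calls. TXNIP and ARRDC3, arrestin-domain proteins that restrain glucose uptake, fell 1.37-fold and 1.39-fold, and 2 of 7 tested members of that list fell. The corrected fit called 1 of them, and ARRDC3 was not called there. TXNIP stood at 20.8 and 22.03 CPM with AMD3100 and at 27.8, 29.6 and 30.4 CPM with vehicle. Of 16 YAP and TEAD targets 3 rose (18.8%, against 5.39% of all tested genes), in the corrected fit as well. CCN2, a matricellular protein, stood at 7.45 and 6.36 CPM with AMD3100 and at 3.75, 4.34 and 4.11 CPM with vehicle (1.70-fold), and its relative CCN1 rose 1.23-fold. KRT7, a simple keratin, rose 1.34-fold, with 562 and 573 CPM with AMD3100 against 439.7, 403 and 432 CPM with vehicle. JUP, plakoglobin, rose 1.17-fold, and in the mesenchymal list the collagen gene COL5A1 rose 1.19-fold and the repressor SNAI1 1.27-fold. JUP, COL5A1 and SNAI1 were not called in the corrected fit. Of 15 keratin and epithelial genes 2 rose and 0 fell (1 and 1 in the corrected fit), and of 16 mesenchymal genes 2 rose and 0 fell (0 and 1).

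The 12 largest rises also held FUT1 and PIP5KL1. FUT1, which makes the H antigen, stood at 13.2 and 13.8 CPM with AMD3100 and at 7.52, 6.71 and 6.85 CPM with vehicle (1.92-fold), and PIP5KL1, a phosphatidylinositol phosphate kinase-like protein, at 19.97 and 18.5 CPM with AMD3100 and at 10.7, 10.5 and 9.60 CPM with vehicle (1.88-fold). All 12 rises were called in the corrected fit. CA9 and NDUFB5, described above, are among the 12 largest falls. CCDC126 stood at 2.78 and 3.01 CPM with AMD3100 and at 4.63, 6.57 and 5.42 CPM with vehicle (1.92-fold lower). COMMD8, a member of a family that acts in endosomal sorting, stood at 8.52 and 7.99 CPM with AMD3100 and at 13.2, 15.8 and 12.97 CPM with vehicle (1.69-fold lower). FGG, the fibrinogen gamma chain, fell 1.62-fold, with 7.502 and 8.13 CPM with AMD3100 against 13.5, 11.8 and 12.8 CPM with vehicle. The Golgi mannosidase MANEA and the zinc-finger gene ZNF91 each fell 1.71-fold and ZNF107 1.61-fold, and none of these was called without AMD3100 replicate 3. STEAP4, a metalloreductase, fell 1.72-fold, and ANAPC10, a subunit of the anaphase-promoting complex, and ZNF774 each fell 1.57-fold. These last 3 were not called in the corrected fit.

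Against TM at the same concentration, in the same fit, 7442 genes differed (36.5%; 7880 in the corrected fit), of which 4014 were higher (19.7%) and 3428 lower (16.8%) with AMD3100. Both treatments share the vehicle libraries, so each is described by its own values. EGR1 averaged 21.4 ± 0.679 CPM with AMD3100, 8.36 ± 0.84 CPM with TM and 3.14 ± 1.02 CPM with vehicle (SD, n = 2, 3 and 3), and its log2 difference of AMD3100 from TM was 1.36 ± 0.15 (SE, edgeR adjusted p = 3.68e-08). FOS averaged 64.1 ± 3.24 CPM with AMD3100 and 23.4 ± 1.75 CPM with TM (log2 1.45 ± 0.08, adjusted p = 1.84e-14). PCK2 was higher too, at 96.7 ± 0.572 CPM with AMD3100 and 31.9 ± 0.527 CPM with TM, TM lying below the vehicle mean of 54.2 ± 1.28 CPM. EGR1, FOS and PCK2 were chosen as large rises over vehicle in these same AMD3100 libraries. AMD3100 exceeded TM for them in every library pair, and the share of all tested genes that did so was not counted.

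Other genes were lower with AMD3100 than with TM. GDF15 averaged 84.5 ± 1.93 CPM with AMD3100 and 638 ± 19.4 CPM with TM (log2 -2.92 ± 0.05, edgeR adjusted p = 3.28e-24), and CDKN1A 57.8 ± 2.99 CPM with AMD3100 and 458 ± 19.7 CPM with TM. ETV5 averaged 50.9 ± 3.02 CPM with AMD3100 and 105 ± 5.42 CPM with TM, and of 19 ERK feedback genes 0 were higher and 14 lower with AMD3100. FGF21, CHAC1, DUSP1, DUSP4, SPRY4, CCN1 and CCN2 were also lower with AMD3100. TXNIP was higher, at 21.4 ± 0.894 CPM with AMD3100 and 4.38 ± 0.625 CPM with TM (log2 2.28 ± 0.11). No difference passed for TRIB3 (log2 0.016 ± 0.05), PHGDH (-0.0049 ± 0.04), FOSB (-0.10 ± 0.18) or CA9 (0.12 ± 0.27), and their standard errors give the size of difference that could have been missed. CA9 averaged 1.28 ± 0.398 CPM with AMD3100 and 1.18 ± 0.365 CPM with TM.

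AMD3100 replicate 1, outside the fit, is set beside vehicle for the largest changes. It lay above all vehicle libraries for EGR1, FOS, FGF21, JUN, FOSB and ETV5 and below all of them for the other 6 of the 12 rises, GDF15, FUT1, PIP5KL1, CHAC1, PCK2 and JUNB. JUNB was at 37.9 CPM in it, against 105 to 110 CPM with vehicle, and its GC content of 64.9% is the highest of the 12. Of the 12 falls it lay below all vehicle libraries for 7, among them CA9, above them for 4 and within them for NDUFB5. Of all tested genes it lay above vehicle for 36.4% and below for 52.2%. It lay below vehicle for 903 of the 1099 genes called higher and above vehicle for 350 of the 562 genes called lower. The vehicle libraries enter both sides of that count, which is given as a description only.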

How the data were processed

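Gene-level read counts were used as deposited by the authors, in a table of whole numbers for 9 HCC1937 libraries. Per the labels' protocols, poly(A) RNA was sequenced as paired reads on a NovaSeq. Per the submitters' processing notes, the tools were featureCounts 2.0.1 and MultiQC 1.11, and the human build was GRCh38. The aligner and annotation version are not given in the sources used here. Between 56.9% and 65.5% of counts of 1 to 20 were even, and whether read mates were counted one by one was not tested. Symbols were found for 61481 of 78932 features, and the features without one held 0.186% to 0.258% of counts. Positions and the GC content of the longest transcript come from GENCODE 29. Length is the gene length in bases that the authors deposited with the counts.

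Counts were fitted with edgeR 4.0.16 in R 4.3.3 over 8 libraries (AMD3100 2 and 3, TM 1 to 3, vehicle 1 to 3), with filterByExpr, TMM factors, 1 coefficient per group and quasi-likelihood F tests. AMD3100 2 and 3 against vehicle was the main contrast and against TM the second. The p-values were adjusted by Benjamini-Hochberg over all 20398 tested genes, and a gene was called under 0.05. SE is the absolute log2 change over the square root of F. The common coefficient of biological variation was 0.0749, and 0.339 with AMD3100 replicate 1 kept. Alternatives were DESeq2 1.42.0, its median-of-ratios scaling, limma-voom (limma 3.58.1), no low-count filter, the compared libraries alone, AMD3100 replicate 1 kept, the replicate number as a block, each library left out, GC content (20 bins) and length (5 bins) corrected, an adjusted p under 0.01 and a 1.5-fold minimum. The side of vehicle on which AMD3100 replicate 1 lies and the CArG and TGACGTCA motifs were added after seeing the data.

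The libraries compared, the gene lists and the tests were chosen with earlier results of these data known. The text names the 12 genes that rose most and the 12 that fell most among called protein-coding genes with at least 5 CPM in the higher group and no overlap between groups, 2 to 6 members of each list with the smallest p (those with the highest CPM where fewer were called), and 11 genes whatever their result (CXCR4, ACKR3, CXCL12, ATF4, DDIT3, ASNS, CHAC1, TRIB3, HSPA5, HMOX1, PSMB5). Other names complete a list's called members or were chosen after their values were seen. A gene that the rule picks is not reported here. Promoter windows are the 250 bases before the first listed start of a symbol in RefSeq.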

Additional observations from a re-analysis of the deposited data

Results flagged for a closer look

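AMD3100 replicate 1 stands outside the comparison and differed from the vehicle libraries in several values. Its mitochondrial share of counts was 19.9%, above every vehicle library. In the same library 6 of the 12 largest rises lay above the level of all vehicle libraries, with EGR1 at 13.9 CPM, FOS at 34.5 CPM, FGF21 at 3.85 CPM, JUN at 26.3 CPM, FOSB at 3.26 CPM and ETV5 at 85.6 CPM. ETV5 was also above both fitted AMD3100 libraries, at 53.1 and 48.8 CPM, while the other 5 genes lay between the fitted AMD3100 libraries and vehicle. The other 6 of the 12 rises lay below all vehicle libraries in AMD3100 replicate 1. Over all tested genes this library lay above all vehicle libraries for 36.4% and below all of them for 52.2%. What set it apart was not tested.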

How the results depend on the processing

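Against vehicle the main fit called 1661 genes. Median-of-ratios scaling gave 1584, no filter 1583, DESeq2 2019 (8700 genes had no adjusted p), limma-voom 1717 and the compared libraries alone 1430, all within 1.5 times of it. The share of calls that were higher was 66.2%, but 53.1% without the filter and 55.7% with the compared libraries alone. The count moved to 0 with AMD3100 replicate 1 kept (951 genes at an unadjusted p under 0.05), 673 with GC content and length corrected, 628 at an adjusted p under 0.01 and 164 with a 1.5-fold minimum. Leaving out 1 library gave 252 to 1485 calls, the low end without AMD3100 replicate 3 (202 higher, 50 lower), and 680 without vehicle replicate 2. Against TM the 7442 calls moved to 1599 with AMD3100 replicate 1 kept and 2911 with the fold minimum, and leaving out 1 library gave 5851 to 6954.

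Same-numbered libraries did not deviate together (correlations of -0.016 to 0.024), so the numbers do not pair the samples. With the number as a replicate block 1030 genes were called, 690 higher and 340 lower, and 8 of the named genes lost their call.

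Of 116 named genes tested, 110 kept direction and side of the threshold in DESeq2, 81 in the corrected fit, 71 without AMD3100 replicate 3, 99 without vehicle replicate 2 and 7 with AMD3100 replicate 1 kept. The 44 that lost their call without AMD3100 replicate 3 were STEAP4, ZNF91, MANEA, ZNF107, NDUFB5, ANAPC10, ZNF774, ATP7A, CD164, CARS2, SLC3A2, SLC6A9, SLC1A4, SLC1A3, CANX, ERO1A, HSF1, CHORDC1, NQO1, OSGIN1, PFKFB4, INSIG2, PGAM1, PFKP, MSMO1, ELOVL5, H1-2, TK1, CDT1, CDC20, KIF23, BAX, CDKN1A, SLC31A1, ATP7B, FBL, BOP1, NDUFV1, TXNIP, ARRDC3, JUP, COL5A1, SNAI1, DDIT3. The 29 that lost it in the corrected fit were STEAP4, ANAPC10, ZNF774, CD164, CARS2, SLC3A2, HSP90B1, CANX, ERO1A, HSF1, CHORDC1, OSGIN1, INSIG2, PFKP, MSMO1, ELOVL5, TK1, CDT1, CDC20, KIF23, CDKN1A, RPS2, FBL, BOP1, NDUFV1, ARRDC3, JUP, COL5A1, SNAI1. The log2 change turned with AMD3100 replicate 1 kept for COMMD8 (0.12), SLC3A2 (-0.12), ERO1A (0.0085), PFKP (-0.027), CDC20 (-0.017), KIF23 (0.089), BAX (-0.067), NFKB2 (-0.078), TNFAIP2 (-0.14), PSMB4 (-0.056), RPS2 (-0.13), RPLP1 (-0.028), BOP1 (-0.020), NDUFV1 (-0.15), MT-CYB (0.12), COL5A1 (-0.12), HMOX1 (-0.28) and PSMB5 (-0.071). In the corrected fit it turned for TNFAIP2 (-0.050), PDIA3 (0.015), PSMD2 (-0.012) and HMOX1 (-0.059), for CALR (0.0081) without AMD3100 replicate 2, and for HMOX1 without AMD3100 replicate 3 (-0.023) or vehicle replicate 3 (-0.0028). The cause was not tested. With 2 AMD3100 libraries, changes of genes under 1 CPM rest on few counts.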
